A study of Drosophila melanogaster with 6 samples.

Results

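The regions described here are the peaks on the outer part of the X chromosome in a chromatin immunoprecipitation sequencing (ChIP-seq) experiment on whole larvae of the fruit fly Drosophila melanogaster. They were chosen by position alone, as all peaks on X with a centre at or below base 20180000 in coordinates of genome release 5, which leaves out the part of X next to the centromere. The rule found 289 peaks, out of 346 on all of X and 13745 in the series.

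The study compared 3 libraries of anti-tango ChIP DNA with 3 libraries of input DNA, which was not immunoprecipitated, from wandering larvae at the third larval instar (L3). All 6 libraries came from the Y cn bw sp strain. Its listed alleles were y[1] together with oc[R3.2], then Gr22b[1], Gr22d[1] as well as cn[1], followed by CG33964[R4.2] and bw[1] plus sp[1]. Listed last were LysC[1] and lab[R4.2], then MstProx[1] and GstD5[1], with Rh6[1] as well. The sex of the larvae is given as unknown, and nothing says whether replicates came from separate cultures. The antibody was a mouse monoclonal labelled for tango, whereas the series title carries the name TCF; which protein was precipitated was not tested. The authors gave 1 list of peaks for all libraries, so no peak has a value per library or a replicate error, and read depth is unknown.

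Tango is a basic helix-loop-helix PAS protein that pairs with partners such as Single-minded, Trachealess and Spineless, and the dimers bind DNA in regulatory regions of genes for the midline, the tracheae and the appendages. TCF, also called Pangolin, is the DNA-binding factor of the Wingless pathway. X differs from the autosomes in that male flies carry a single copy, whose transcription is raised by the dosage compensation complex. Factor binding sites typically give narrow peaks, shorter than most genes, in ChIP-seq. Each peak in the list has a first and last base and a score from the peak-calling program MACS. The score is the authors' own and its scale is not stated, so it was used only to order and compare peaks within the list. No genes or sequences are given for these peaks, because the gene table at hand was of release 6 and no release 5 sequence was used here.

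Most peaks of outer X were narrow and weak, and chosen cut-offs of score and width set off smaller sets of narrow strong peaks and of wide peaks. A set of 26 focal peaks, defined as no wider than 1 kb and scoring 100 or more, made up 9.0% of the peaks (95% Wilson interval 6.21 to 12.9%). A set of 22 wide peaks of at least 4 kb made up 7.61% (5.08 to 11.3%) and held 54.5% of all bases covered. Another 31 peaks were of intermediate width (10.7%, 7.66 to 14.8%), and 20 of them had another peak at a gap of at most 400 bp. The remaining 210 peaks (72.7%, 67.3 to 77.5%) were at most 1 kb wide and scored under 100, with a median score of 19.65 and a median width of 367.5 bp. The highest of them scored 96.5 and the lowest focal peak 101, so the cut at 100 marks no break in score. In width there was a break, as no peak was between 2978 and 4500 bp. Taken as a whole, the 289 peaks had a median score of 24.9 (interquartile range 15.9 to 52.5) and a median width of 464 bp (315 to 799 bp). They covered 339 kb, or 1.69% of the 20.1 Mb between the first peak and the limit. All intervals cover counting error only, and they are too narrow where peaks lie in groups.

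**Figure D1:**
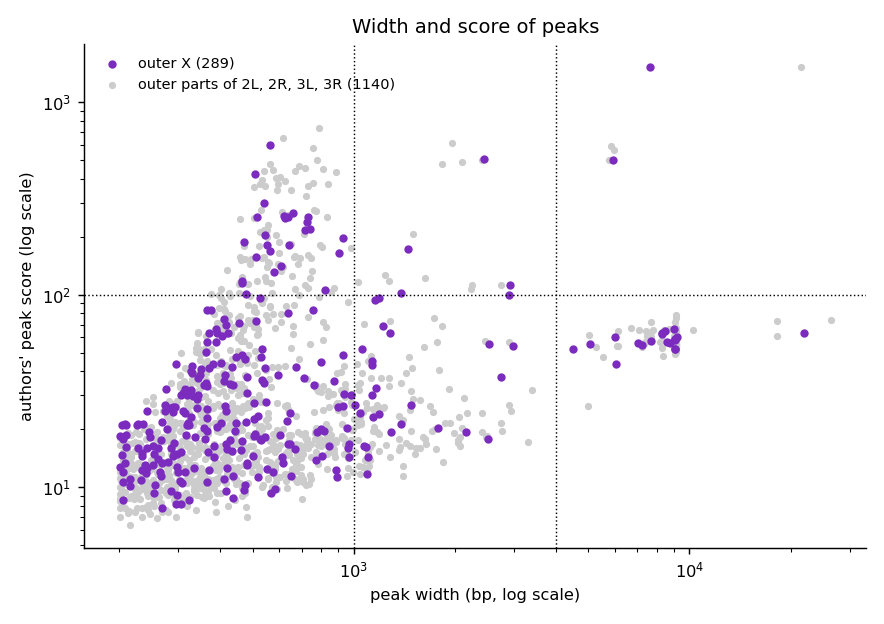
Width in bp against the authors' peak score, both on log axes, for each peak of outer X (purple) and of the outer parts of 2L, 2R, 3L and 3R (grey); dotted lines mark 1 kb, 4 kb and a score of 100. Nearly all wide peaks of outer X sit in a band between scores of 43.7 and 66.5, with 2 far above it at 498 and 1518. On the autosomal arms 74 of 79 wide peaks scored between 40 and 80 (47.6 to 78.3), and all 79 scored 26.5 to 1509.

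Peaks were found along the whole of outer X, with 14.4 peaks per Mb (95% exact Poisson interval 12.8 to 16.1). Each of the 20 complete 1 Mb bins held at least 4 peaks, with a median of 14.5, and the fullest held 32. That fullest bin ran from 9 to 10 Mb, followed by 14 to 15 Mb with 22 peaks, 10 to 11 Mb with 21, 6 to 7 Mb with 20 and 11 to 12 Mb with 18. The bin from 15 to 16 Mb held 4 peaks, and the bins from 7 to 8 Mb and 16 to 17 Mb held 6 each. Cut in the middle, the outer part held 152 peaks on the side of the free end and 137 on the side of the centromere. Focal peaks numbered 15 on the side of the free end and 11 on the other, and wide peaks 13 and 9.

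The uneven peak counts went partly with groups. A group was taken as a run of peaks in which each centre lay within 5 kb of the next, and a place as either a group or a peak alone. In the bin from 9 to 10 Mb, 18 of the 32 peaks (56.2%) lay in groups of at least 5. The same bin held no focal and no wide peak. Counted as places, the bins ranged from 4 to 15 with a median of 9, and the bin from 9 to 10 Mb had the most. The bin from 14 to 15 Mb held 22 peaks at 8 places, with 11 peaks in groups of at least 5. The bin from 6 to 7 Mb held 20 peaks at 13 places, with 0 in such groups. The variance of the bin counts was 2.98 times their mean for peaks and 0.88 times for places. Peaks were thus far more uneven between bins than places were, and a lower ratio for places goes with counting each group once. On the outer parts of 2L, 2R, 3L and 3R the ratio for peaks was 2.82, 8.04, 5.08 and 2.03, so outer X lay within their range. For focal peaks of outer X this ratio was 0.74 and for wide peaks 1.04, with at most 3 of either kind in a bin. The bins without a focal peak numbered 5, and those without a wide peak numbered 8.

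**Figure D2:**
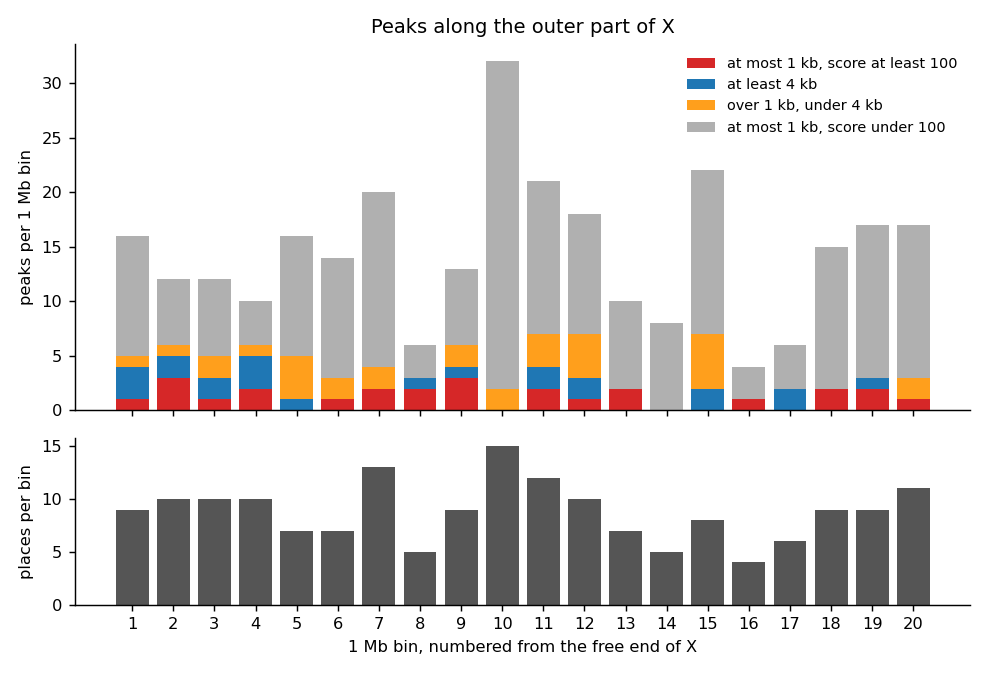
Top, number of peaks per 1 Mb bin of outer X, stacked by kind of peak; bottom, number of places per bin, where a group of peaks counts once. Bin 10 (9 to 10 Mb) is the highest in both, with 32 peaks at 15 places, and bin 16 the lowest, with 4 peaks at 4 places.

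Long stretches held no peak. Of the 288 intervals between neighbouring peaks, 74 were longer than 100 kb, and together they made up 75.5% of the span. The longest empty intervals were X:11941811-12405182 with 463372 bp, X:13324507-13784861 with 460355 bp and X:3637894-4051992 with 414099 bp. At the other end of the scale, 66 intervals (22.9%) were at most 400 bp. The median interval was 24.1 kb.

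The 10 strongest focal peaks were 508 to 729 bp wide. The highest, X:2031119-2031681, was 563 bp wide with a score of 594, and ranked 7 among the 1980 peaks on the assembled arms, chromosome 4 included. X:6502125-6502632 followed with a score of 421 over 508 bp, and X:11435117-11435656 with 299 over 540 bp. The highest and the second lay clearly above all other narrow peaks, whereas the third was closer in score to those that followed than to the second. The next 7 were close together in score, between 239 and 266. X:18373707-18374365 scored 266 and X:17986735-17987355 scored 256. X:12735786-12736423 had 252, X:3327253-3327981 had 252 and X:1977773-1978286 had 252, values that differed by less than 1 before rounding. X:8315160-8315785 scored 250 and X:15206542-15207267 scored 239. These 7 peaks were 514 to 729 bp wide. The other 16 focal peaks scored between 101 and 219. Of all 26, 13 had a score of at least 200 and 13 a score below it.

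Focal peaks were spread out, with a median distance of 476 kb and a smallest distance of 47.0 kb between neighbouring focal centres. Among the 10 strongest, X:17986735-17987355 was the most isolated, with 183194 bp to the closest peak of any kind, followed by X:8315160-8315785 with 127415 bp. Another peak centre within 5 kb was found for 10 of the 26 (38.5%, Wilson interval 22.4 to 57.5%), and the 4 strongest focal peaks were all among them. In 2 of the 10 the other peak was stronger and lay at a gap of 186 or 210 bp. In the other 8 it was a weaker peak, at a gap of 1314 to 4317 bp. The strongest focal peak, with a score of 594, had a peak of 1223 bp with a score of 68.6 at 3618 bp. X:18298831-18299473 scored 180 and had a peak of 511 bp with a score of 72.6 at 1408 bp. X:12735786-12736423 had one of 393 bp with a score of 63.0 at 1314 bp. X:10159285-10159827 had a peak on either side, one of 595 bp with a score of 38.2 at 2692 bp and one of 6011 bp with a score of 60.1 at 1561 bp. The weakest of these other peaks scored 10.3.

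**Figure D3:**
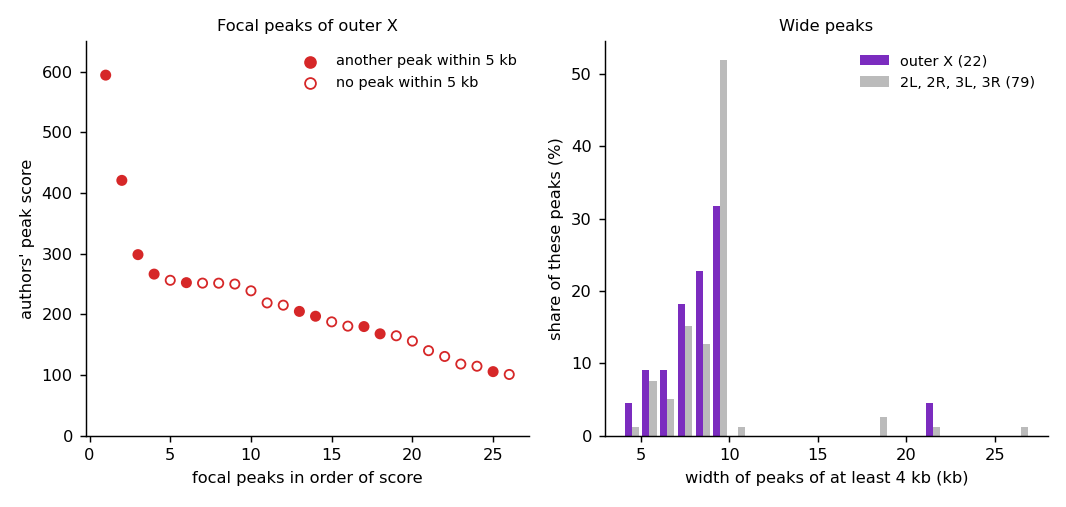
Left, the authors' score of the 26 focal peaks of outer X in order of score, filled where another peak centre lay within 5 kb; right, the widths of peaks of at least 4 kb on outer X (purple) and on the outer parts of 2L, 2R, 3L and 3R (grey), each as a share of its own total. The 4 strongest focal peaks all had such a neighbour, and 6 of the 22 wide peaks of outer X were 9 to 9.2 kb wide, against 40 of 79 on the autosomal arms.

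Most of the wide peaks fell into a limited band of scores. Apart from 2, all of the 22 scored between 43.7 and 66.5, with a median of 57.9, although their widths ran from 4500 to 21927 bp. Across these 20 peaks the rank correlation of width with score (Spearman's rho) was 0.35, which is a description of peaks in 1 list and has no p. On the outer parts of the autosomal arms, 74 of 79 wide peaks scored between 40 and 80, from 47.6 to 78.3 with a median of 58.9. The window of 40 to 80 bounds this range, and all 79 scored 26.5 to 1509. The widest member was X:3491662-3513588 with 21927 bp and a score of 63.0. A width of 9 to 9.2 kb was shared by 6 of the wide peaks. These were X:1631218-1640274 with a score of 52.1, X:3112603-3121666 with 59.1, X:3387186-3396259 with 58.6, X:7019363-7028370 with 66.5, X:13999124-14008205 with 58.2 and X:16234761-16243833 with 52.1. All 6 stood alone, at least 43503 bp from the closest peak. The exact widths of 4 of them, 9064, 9074, 9082 and 9073 bp, lay within 18 bp of each other.

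Other wide peaks in the band were 4500 to 8721 bp, with 1 of 9202 bp. By score they were led by X:2717894-2726335 (8442 bp, score 64.6) and X:16116879-16125146 (8268 bp, 63.0). X:2293928-2302238 followed with 8311 bp and 62.5, X:10161389-10167399 with 6011 bp and 60.1, and X:14830935-14840136 with 9202 bp and 60.1. The lowest was X:8842846-8848870, with a score of 43.7 over 6025 bp. No other peak had its centre within 5 kb of the centre of 18 of the 22 wide peaks (81.8%, 61.5 to 92.7%). The other 4 each had a peak at a gap of 98 to 186 bp. Since this distance runs from centre to centre, a wide peak takes up much of the 5 kb itself, and the share alone partly follows from width. X:11637659-11644680 counted as alone with a peak at a gap of only 4352 bp. Wide peaks were at least 110 kb apart, from centre to centre, with a median distance of 662 kb.

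The 2 wide peaks outside the band were the first and the fourth in score on outer X. X:1521939-1529579 (7641 bp) had a score of 1518, which was 2.55 times that of the second, and was the highest of the whole series. It stood alone, with 101638 bp to the closest peak. X:11429026-11434930 scored 498 over 5905 bp and had the focal peak X:11435117-11435656 at a gap of 186 bp. From end to end this couple measured 6631 bp. A shorter couple of the same layout lay at X:6499475-6501914, a peak of intermediate width (2440 bp) with a score of 506 that ranked 3 on outer X. The focal peak X:6502125-6502632, with a score of 421, stood at a gap of 210 bp, and the 2 together measured 3158 bp. In both couples the narrow peak was on the high-coordinate side and had the lower score. Peaks of intermediate width with a score of 100 or more were few. Besides X:6499475-6501914 they were X:11452670-11454125 (1456 bp, score 172), X:2964353-2967274 (2922 bp, 112) and X:11539372-11540754 (1383 bp, 102). The last of these had X:11540919-11542107, with 1189 bp and a score of 95.6, at a gap of 164 bp. No other 2 peaks with a score of at least 100 lay within 5 kb of each other on outer X. On the whole autosomal arms such couples numbered 5 on 2L, 3 on 2R, 1 on 3L and 3 on 3R.

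More than 1 in 2 peaks lay in groups, and the larger groups were made of weak peaks. Of the 289 peaks, 161 (55.7%, 49.9 to 61.3%) had another centre within 5 kb, and they formed 48 groups. Couples were the most frequent, 23 in number, with 8 groups of 3 peaks and 7 of 4. The 10 groups of at least 5 peaks held 63 peaks (21.8%, 17.4 to 26.9%). Their peaks had a median score of 16.8 (interquartile range 11.9 to 25.6) and a highest score of 48.5. Peaks standing alone had a median score of 34.6 (19.3 to 63.0). Among narrow peaks under a score of 100, those in groups of at least 5 were wider and weaker, with a median of 473 bp and a score of 15.8 (54 peaks). Those standing alone had a median of 319 bp and a score of 21.65 (87 peaks).

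The largest group, X:9692639-9708687, held 11 peaks over 16049 bp with scores of 9.69 to 44.0. Groups of 7 peaks lay at X:9989271-9996779 (7509 bp) and X:10419175-10426129 (6955 bp). Groups of 6 lay at X:706385-711900 (5516 bp), X:11527544-11534486 (6943 bp) and X:14051709-14057272 (5564 bp). The 4 groups of 5 peaks spanned 3440 to 6934 bp. In these 10 groups the peaks covered 35.8 to 81.0% of the span.

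A layout recurred in these groups, which was noticed only after the values had been seen. In 6 of the 10 the first and last peaks had the 2 highest scores (60.0%, 31.3 to 83.2%), against 19 of 47 such groups on the autosomal arms (40.4%, 27.6 to 54.7%). At X:11527544-11534486 the outer peaks scored 32.7 and 26.3, and the inner ones 8.19 to 11.0. At X:14051709-14057272 the outer peaks scored 30.3 and 37.3, and the inner ones 10.3 to 12.7. At X:4051993-4058926 they scored 30.65 and 43.0, with inner peaks of 8.65 to 16.1. Of these 6 groups, 3 were almost equal in length, with 6934, 6943 and 6955 bp from the first to the last base. The first 8 peaks of the largest group spanned 6932 bp too. The first and eighth of them scored 24.9 and 44.0, above the 23.3 of the highest of the 6 between, and 3632 empty bases separated them from the last 3 peaks. Of the groups of at least 3 peaks, 3 of 25 on outer X spanned 6900 to 7000 bp (12.0%, 4.17 to 30.0%), against 10 of 107 on the outer parts of the 4 large autosomal arms (9.35%, 5.16 to 16.4%). In all 13 the end peaks had the 2 highest scores. The limits of 6900 and 7000 bp were set around the values on X, so these counts are a description.

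**Figure D4:**
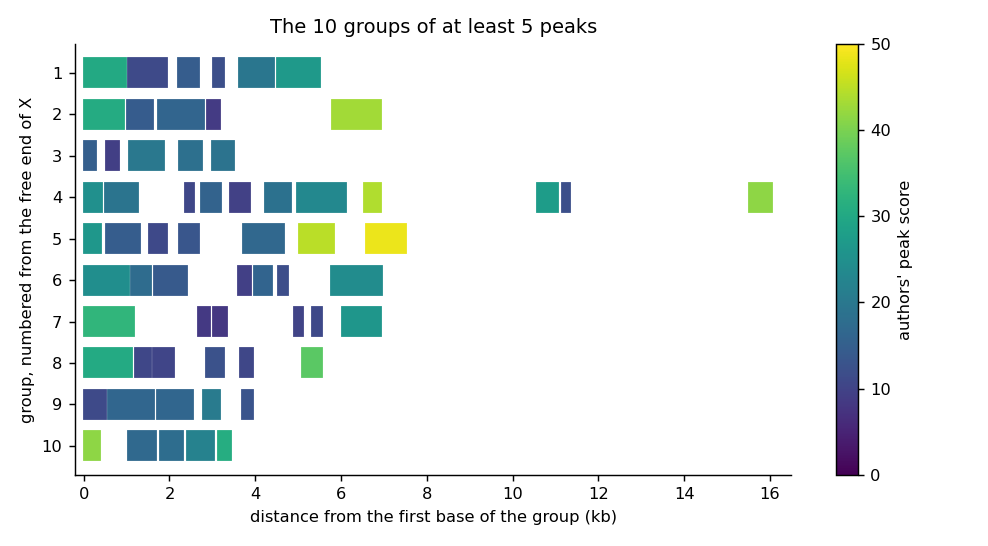
Peaks in the 10 groups of at least 5 on outer X, one group per row, as boxes from first to last base at their distance in kb from the first base of the group, coloured by the authors' score. In rows 2, 6 and 7 the end peaks are the strongest and the groups end at almost the same distance, 6934 to 6955 bp, as does the eighth peak of row 4.

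Outer X was set beside the outer parts of 2L, 2R, 3L and 3R, taken as each arm without the centromere-side 10% of its span. As deposited, its density of peaks was within their range. It had more places per Mb, a higher median score and a smaller share of peaks in large groups. Of these orders, only that of places per Mb held in all 4 alternatives given in the last section. No test was run, since peaks of 1 list are not replicates and a comparison of 1 chromosome with 4 arms could not pass one. The range over the 4 autosomal arms is given beside each value, but it is not an error. Among 5 arms some arm is always highest and some arm lowest, and many measures were compared. A position outside the range is therefore a description only. Outer X had 14.4 peaks per Mb, within the autosomal range of 11.6 to 14.6, but with the centromere-side 15% left out it was above that range, at 14.6 against 11.4 to 14.0. It had 8.75 places per Mb (exact interval 7.50 to 10.1), above the autosomal range of 6.90 to 7.97, and the pooled autosomal value was 7.37 (6.81 to 7.97). Peaks in groups of at least 5 made up 21.8% on outer X, below the autosomal range of 24.1 to 36.7%. The lowest autosomal value, on 3R, lay inside the interval of outer X, and after peaks at gaps of at most 400 bp were merged the share on outer X was within the autosomal range (2.24% against 0 to 7.58%).

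Scores on outer X were higher at the low end of the list. The median score of 24.9 on outer X (95% interval of the median 21.4 to 28.9) lay above the medians of 18.45 to 21.0 on the 4 autosomal arms. The pooled autosomal median was 19.5 (18.35 to 20.6 by order statistics). By arm, the interval of 3R (18.3 to 26.1) held the median of outer X, and that of 3L (18.2 to 23.5) overlapped the interval of outer X. Those of 2L and 2R ended below it, at 20.4 and 20.9. Among peaks not below the list's median score, the median of outer X was within the autosomal range, with 102 against 90.5 to 102. A score under 15 was given to 66 of 289 peaks on outer X (22.8%, 18.4 to 28.0%) and to 386 of 1140 on the autosomal arms (33.9%, 31.2 to 36.7%). Each of the autosomal arms was above outer X in this share, from 32.1 to 35.9%. The cut of 15 was not among the planned measures. It lies between the first quartile of outer X, 15.9, and those of the autosomal arms, 12.8 to 13.3. The order of these shares therefore follows from the quartiles. At the high end the difference was small. Scores of 100 or more were given to 32 peaks of outer X (11.1%, 7.95 to 15.2%) and to 8.59 to 10.0% of peaks on the autosomal arms. Among peaks standing alone the order was the other way, with a median of 34.6 on outer X and 46.3 on the autosomal arms. In groups of 2 to 4 peaks the median was 24.7 on outer X, and 15.3 to 17.9 on the autosomal arms. The copy number of X in these larvae of unknown sex and the read depth on X have no value in the list, and their part in the scores was not tested.

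In median width outer X lay within the range of the autosomal arms as deposited, but below it under 2 of 4 alternatives. The median width was 464 bp on outer X and 464 bp over the pooled autosomal arms, where single arms ranged from 456 to 482.5 bp. After merging it was 477 bp on outer X, against 507.5 to 571 bp, and among peaks not below the arms' median score 529 bp, against 541 to 611 bp. Wide peaks made up 7.61% of peaks on outer X, within the autosomal range of 5.30 to 7.88%. Of the wide peaks, 6 of 22 on outer X were 9 to 9.2 kb (27.3%, 13.2 to 48.2%), against 40 of 79 on the autosomal arms (50.6%, 39.8 to 61.4%). The intervals overlap, and the share on single autosomal arms ran from 37.5 to 65.2%. The rank correlation of width with score was 0.48 across the peaks of outer X, and 0.47 to 0.54 on the autosomal arms. Its sign turned among peaks not below the list's median score, to -0.18 on outer X and -0.29 to -0.11 on the autosomal arms. It was above the autosomal range on outer X among peaks not below the arms' median score (0.46 against 0.20 to 0.35) and after merging at gaps of at most 400 bp (0.48 against 0.21 to 0.45).

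Focal and wide peaks per Mb were both above the autosomal range on outer X. Focal peaks numbered 1.29 per Mb on outer X (0.84 to 1.89), against 1.00 to 1.13 on the autosomal arms, and wide peaks 1.09 per Mb (0.69 to 1.66), against 0.91 (0.72 to 1.13) over the pooled autosomal arms. The values of all 4 autosomal arms lay inside the intervals of outer X. More of the focal peaks on outer X had company. Another centre within 5 kb was found for 10 of 26 focal peaks on outer X (38.5%, 22.4 to 57.5%) and for 14 of 92 on the autosomal arms (15.2%, 9.29 to 23.9%). By arm the autosomal share ran from 7.69% on 3R to 26.3% on 2R. The intervals of outer X and the pooled autosomal arms overlap slightly. This comparison was chosen after the values had been seen.

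**Figure D5:**
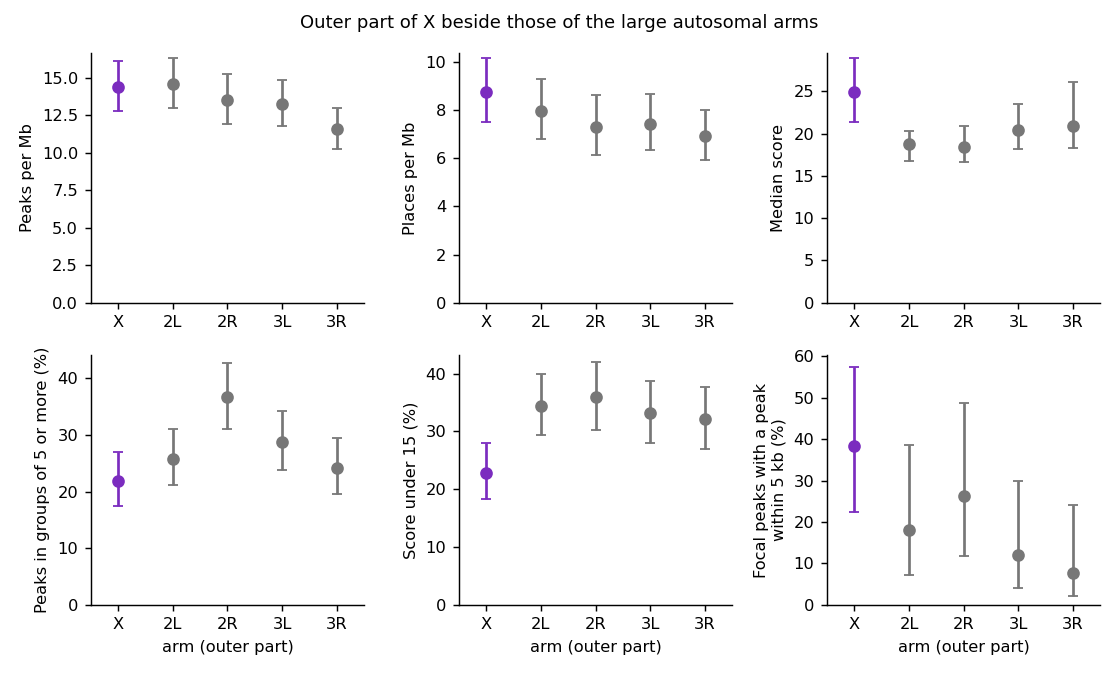
Outer X (purple, left) and the outer parts of 2L, 2R, 3L and 3R (grey), with 95% intervals for counting error (exact Poisson for densities, order statistics for the median, Wilson for shares). Outer X lies above all 4 autosomal arms in places per Mb, median score and the share of focal peaks with company, and below all 4 in the share of peaks with a score under 15 and in groups of 5 or more. Some arm is always highest and some arm lowest in each panel, so these positions are a description. The cut of 15 was not planned.

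The end of the outer part was set by the rule and fell in a gap between peaks. The last peak inside it was X:19961136-19961390 (255 bp, score 15.0), and the 4 before it belonged to the group that ended at base 19930856, with scores of 16.9, 17.6, 22.0 and 31.1. The first peaks beyond it were X:20248506-20248877 (score 18.2) and X:20249327-20249699 (11.4). They were followed by X:20360349-20360625 (17.9), X:20366800-20367199 (66.0) and the wide peak X:20707829-20714467 (66.5). Outer X had 14.4 peaks per Mb and a median score of 24.9, against 25.4 per Mb (19.2 to 32.9) and 17.9 for the 57 peaks beyond the limit.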

How the data were processed

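ChIP and input DNA of larvae were sequenced, and the authors deposited 1 peak list for all 6 libraries, with the score of each peak and its outermost bases. Per the file headers, peaks come from MACS on FlyBase release 5. The submitters' processing notes name the BDGP5 build, MACS2 and BWA, besides versions 1.7.0.3 and 1.7.0.2 of CASAVA. For the threshold, for reads in repeats and for the pooling of replicates, the authors' choice is not stated.

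From the list, widths, densities, groups, shares and ranks were computed with scipy 1.17.1, pandas 2.3.3 and numpy 2.4.6 in Python 3.11.15. A check on simulated data covered the counts of peaks, of focal and wide peaks, of peaks grouped or alone, and of places. It did not cover score medians, ranks, intervals or correlations. No peak was filtered out. No test across peaks was run, and the 95% intervals cover counting error only. Named peaks are the 10 narrow (at most 1 kb) and 10 wide (at least 4 kb) peaks of highest score, the 5 nearest the limit on each side, and the 5 largest groups and fullest bins. Further peaks were named after their values were seen. The members and limits were chosen with earlier results of these data known.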

Additional observations from a re-analysis of the deposited data

How the results depend on the processing

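Of 47 alternative values for outer X, 22 stayed within the interval of the value as deposited, 24 moved out of it and 1 turned its sign. That was the rank correlation of width with score, which was -0.18 among peaks not below the list's median score (an alternative added after seeing the data) and 0.38 among peaks of at most 1 kb. It was the only measure here that can change sign. No paired analysis was possible because every peak has 1 value for all libraries, and leaving out a replicate could not be run for the same reason. Rules for motifs and genes needed a release 5 reference and were left aside. Among the 62 peaks not below the list's median score, the density was 3.08 per Mb, the median score 102, the median width 651 bp, the focal share 41.9%, the wide share 21.0%, the share with a neighbour 22.6%, the share in groups of at least 5 was 0% and the median bin 3. Among the 174 peaks not below the arms' median score, the same measures were 8.65 per Mb, 43.65, 529 bp, 14.9%, 12.6%, 35.6%, 0% and 8. For density, bins, median score and focal share the direction was set in advance, since these cuts remove weak peaks and no focal peak. For the other measures the cause was not tested. Merging peaks at gaps of at most 400 bp (223 left) gave a density of 11.1 per Mb, a median score of 31.9, 35.9% with a neighbour and 2.24% in groups of at least 5. Bins of 500 kb held a median of 6 peaks, 41.2% of peaks had a neighbour within 2 kb, and focal peaks from a score of 50 made up 15.2%. Here too the direction was set in advance, since smaller bins and a shorter distance lower the counts and a lower cut raises the focal share. All values with the centromere-side 15% left out stayed within the intervals.

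Outer X kept more places per Mb than any of the 4 autosomal arms in all 4 alternatives tried for that order. Its density of peaks was within their range as deposited and above it in these 4. Its median score was above theirs as deposited, after merging (31.9 against 24.7 to 30.2) and with 15% left out (25.0 against 18.7 to 20.7), but within their range at or above the list median (102 against 90.5 to 102) and the arms' median. The share in groups of at least 5 was below theirs as deposited and with 15% left out, and within their range after merging (2.24% against 0 to 7.58%). The share with a neighbour within 5 kb was below theirs as deposited, within their range with 15% left out (56.3% against 55.9 to 61.9%) and above it in the other 3, with 35.9% against 27.4 to 35.5% after merging, 22.6% against 6.45 to 17.5% at the list median and 35.6% against 17.1 to 25.0% at the arms' median. The cause was not tested for these orders either.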
